A study of Danio rerio with 20 samples.

Results

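The let-7 family was followed through 8 groups of whole zebrafish that differed in genotype and age. Its members were taken by name, as the probes dre-let-7a to dre-let-7j, where dre stands for Danio rerio, which gave 10 of the 219 mature microRNAs on the array. All 10 were among the 167 probes that were above background in at least 2 samples of a group and were therefore tested. let-7e, let-7h and let-7j met that rule through samples at 30 days post fertilisation (dpf) only.

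The fish were of the TL strain, raised on a shrimp diet, and were either sapje or sapje-like mutants or the wild types of the same cohorts, called SW for sapje and SLW for sapje-like. Both mutants are named lines of dystrophin-deficient zebrafish, which model the muscle wasting of Duchenne muscular dystrophy. There were 2 samples per genotype at 5 dpf and 3 at 30 dpf, which makes 20 over the 4 genotypes, and the labels give 10 fish per cohort and whole fish as the tissue. Total RNA was labelled with Cy3 in 10 samples and with Cy5 in the other samples, and hybridised to a microRNA array that carried each probe on 12 spots. The labels do not say whether replicates came from separate pools of fish, so the p-values measure the spread between these samples, which may be technical. Dystrophin messenger RNA is not measured on such an array, so the genotype could not be checked from the data.

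let-7 was first described in Caenorhabditis elegans as a gene that times the passage from larval to adult cell fates. In vertebrates the mature family accumulates late in development, and the RNA-binding protein Lin28 blocks the processing of let-7 precursors in early embryos. Known targets of let-7 in mammals include LIN28 itself, HMGA2 and RAS genes, and recognition rests mainly on the seed, the bases near the 5′ end of the microRNA.

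The array's mature sequences show how alike the members are. They are written 5′ to 3′ with the seed, bases 2 to 8, in capitals.
dre-let-7a: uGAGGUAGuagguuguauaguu
dre-let-7b: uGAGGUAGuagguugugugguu
dre-let-7c: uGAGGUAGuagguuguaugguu
dre-let-7d: uGAGGUAGuugguuguaugguu
dre-let-7e: uGAGGUAGuagauugaauaguu
dre-let-7f: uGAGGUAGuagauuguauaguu
dre-let-7g: uGAGGUAGuaguuuguauaguu
dre-let-7h: uGAGGUAGuaaguuguguuguu
dre-let-7i: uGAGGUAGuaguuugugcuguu
dre-let-7j: uGAGGUAGuuguuuguacaguu
All 10 have 22 bases and the seed GAGGUAG, which no other mature probe on the array carries. Their differences lie at 7 positions, from base 10 to base 19 counted from the 5′ end, and the other 15 bases are shared. Members differ from each other by 1 to 6 bases, and 7 of the 45 pairs differ by a single base. let-7a stands 1 base from let-7c, let-7f and let-7g, while let-7i has no relative closer than 3 bases. A probe can bind a near-identical microRNA, so the signals of members that differ by 1 base cannot be fully told apart on this array.

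Zebrafish carries several copies of some members. The RefSeq gene table of assembly GRCz12tu lists 18 let-7 loci, of which 6 encode let-7a and 2 each encode let-7c, let-7d and let-7g. Another let-7 locus lies within 20 kb of 8 of them, pairing let-7a with let-7b, let-7e or let-7f and let-7g with let-7h. A miR-99, miR-100 or miR-125 locus lies as close to 6 others, which encode let-7a, let-7c and let-7d. The copies of a member give the same mature sequence and were read by 1 probe.

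Values below are normalised log2 intensities, the log2 of the background-corrected brightness after the arrays were brought to a common distribution. A low value near 6.5 is the floor of the array, but the level that counts as above background differs between samples. At 5 dpf let-7d at 7.57 in SW replicate 2 was not above background, while let-7f at 6.69 in sapje-like replicate 2 was. Levels are compared between samples of 1 probe only, because probes differ in brightness for the same amount of RNA. At 30 dpf every member was above background in all 12 samples, except let-7j in sapje-like replicate 3. At 5 dpf only let-7a and let-7c were above background in all 8 samples, let-7h and let-7j were above it in none, and a sample showed between 3 and 7 members. No let-7 probe mean was near saturation: the highest was 7527 scanner units, against 62313 for the brightest spot on any array.

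**Figure D1:**
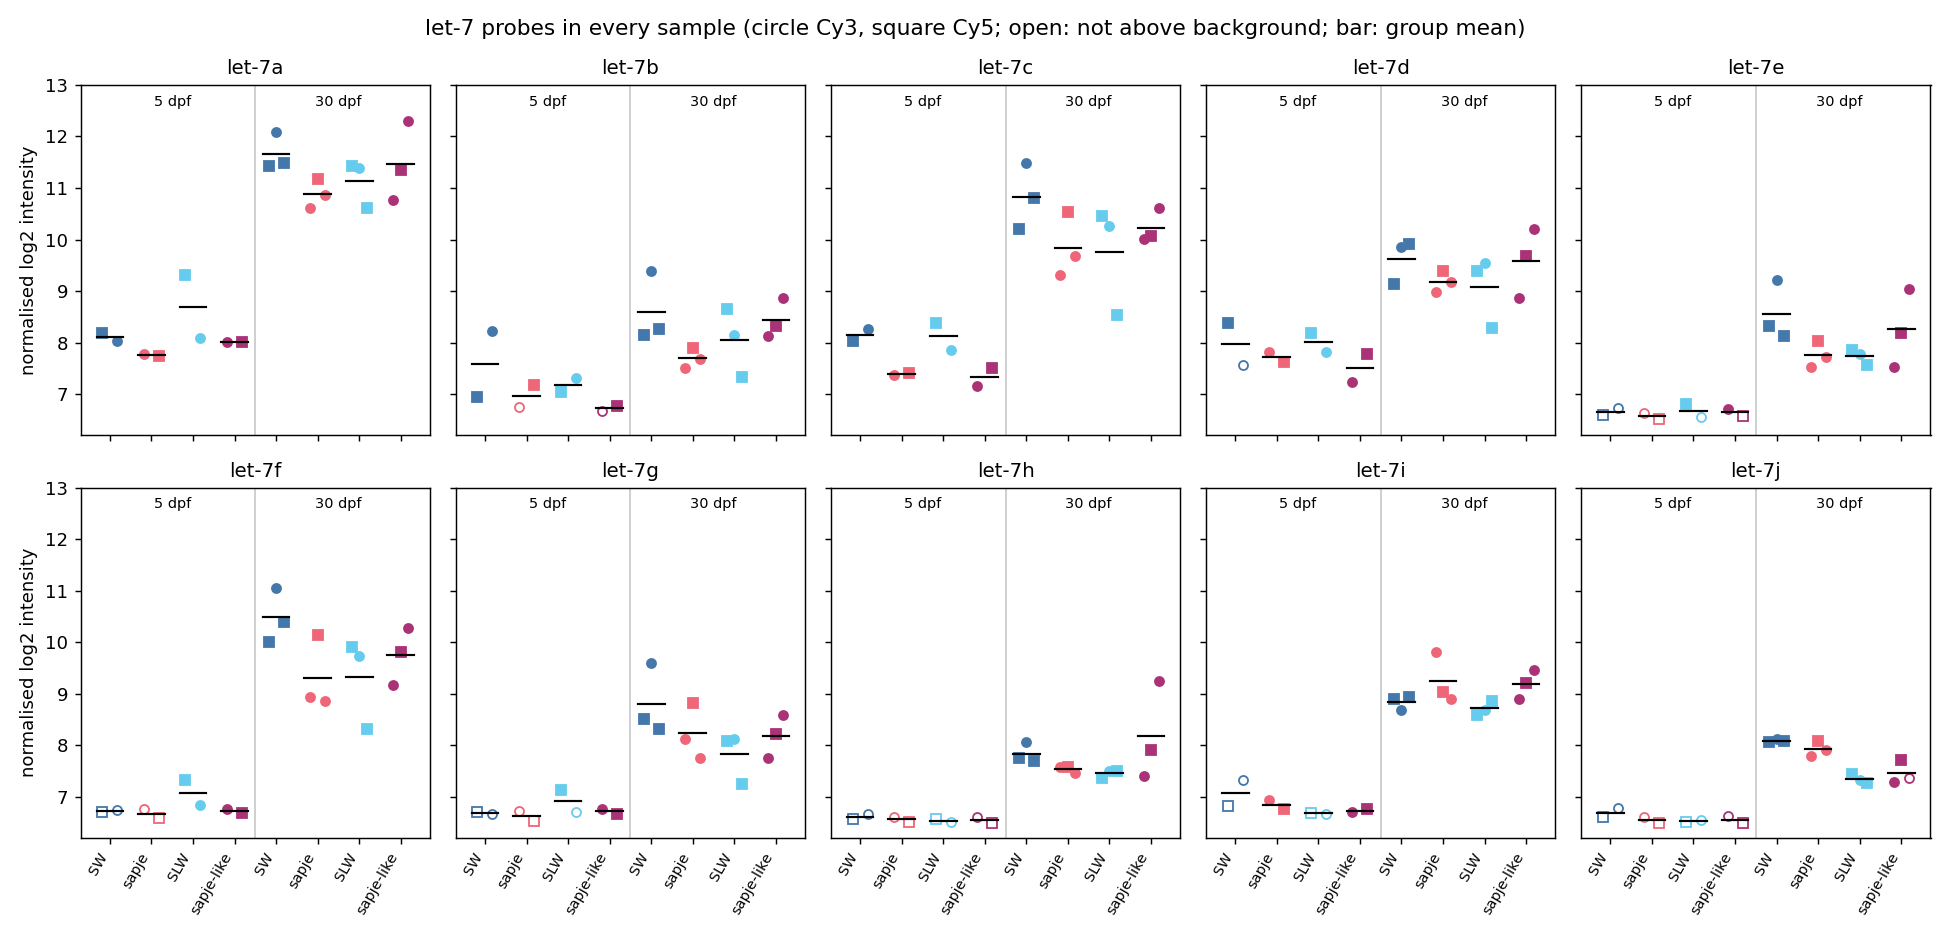
Normalised log2 intensity (vertical axis) of each let-7 probe in all 20 samples, by genotype at 5 dpf and 30 dpf; circles are Cy3 samples, squares Cy5 samples, open symbols samples not above background, and bars group means. For 8 of the 10 probes every 30 dpf sample lies above every 5 dpf sample; let-7b and let-7d overlap.

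The rise between 5 and 30 dpf was common to the whole family. let-7a read 8.19 and 8.04 in the SW samples at 5 dpf and 11.43, 12.09 and 11.48 in those at 30 dpf. In SLW it read 9.30 and 8.09 at 5 dpf and 11.43, 11.39 and 10.61 at 30 dpf. The 6 wild-type samples at 30 dpf thus all exceeded the 4 at 5 dpf, with a gap of more than 1 log2 unit. Fitted over both cohorts, the change in let-7a was 2.99 ± 0.31 (SE), a 7.97-fold rise with an adjusted p of 1.85e-06 in limma.

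All 10 members were called higher at 30 dpf in wild type of both cohorts, where 29.9% of the tested probes were called higher and 58.1% in either direction. Their median change was 1.51, against 0.03 over all tested probes. let-7f, which has 1 base unlike let-7a, rose by 3.00 ± 0.36 (7.99-fold). let-7c rose by 2.17 ± 0.37, let-7d by 1.35 ± 0.31 and let-7b by 0.99 ± 0.30, and the largest adjusted p of the family was 0.0123, for let-7b. let-7g (1.52 ± 0.29) and let-7e (1.49 ± 0.26) were above background in 1 each of the 4 wild-type samples at 5 dpf, and let-7f in 2. Because let-7e, let-7h and let-7j entered the test through their 30 dpf samples, they add no support to the count. The 7 members that also met the rule at 5 dpf were all called.

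let-7h, let-7i and let-7j were not above background in any of the 4 wild-type samples at 5 dpf, so that their rise has only a lower bound. Measured against the dimmest probes that were above background on the same arrays, let-7i was at least 3.57-fold higher at 30 dpf (mean 8.78 against 6.88 as measured), let-7j at least 1.83-fold (7.72 against 6.61) and let-7h at least 1.74-fold (7.64 against 6.57). The fit's adjusted p were 8.83e-07 for let-7i, 1.74e-06 for let-7j and 0.00186 for let-7h. With no filter on dim probes they were 1.74e-06, 6.49e-07 and 0.00317, and 0.00044 for let-7e.

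The wild-type rise was present within each dye. In Cy3 samples let-7a changed by 3.68 and in Cy5 samples by 2.49, and the 10 members were above 0 in both dyes. let-7d showed 2.01 in Cy3 and 0.89 in Cy5, and let-7i showed 1.69 and 2.07. Across samples, 8 of 10 members had every 30 dpf sample above every 5 dpf sample, where 12% of tested probes, these 8 included, did so. let-7b and let-7d were the exceptions: let-7b reached 8.22 in SW replicate 2 at 5 dpf and was as low as 7.34 in SLW replicate 8 at 30 dpf, and let-7d reached 8.39 in SW replicate 1 at 5 dpf against 8.29 in the same SLW sample. Among the 8, let-7e, let-7h and let-7j entered the test through their 30 dpf samples and add no support to this count. SW replicate 2 at 5 dpf had 105 probes above background, against 138 to 158 in the other 5 dpf samples. Its let-7b signal was 1.36 times the median of the empty spots. The size of the rise depended on the scale: its median over members was 0.99 under cyclic loess and 2.26 in the authors' deposited value table.

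Each genotype was then taken by itself. In these counts too, let-7e, let-7h and let-7j add no support, because they entered the test through their 30 dpf samples. In SW all 10 members were called higher (26.3% of tested probes were), with let-7a at 3.55 ± 0.43. There let-7e to let-7j, 6 members, were not above background at 5 dpf, and let-7f was at least 11.7-fold higher at 30 dpf (10.49 against 6.73 as measured). The SW call of let-7b (1.07, adjusted p 0.0483) was lost in 18 of 33 other settings, with an adjusted p of up to 0.487, and 8 to 10 members were called with 1 sample left out. In sapje-like all 10 were called higher as well (15% of tested probes), led by let-7a at 3.46 ± 0.43 and let-7f at 3.03 ± 0.50. With 1 sample left out 8 to 10 sapje-like members were called, and 7 to 10 in the 13 other settings. Neither let-7h nor let-7j was above background in sapje-like at 5 dpf, so their rise there has only a lower bound. In sapje 8 members were called higher (17.4% of tested probes). Of these, let-7e, let-7f, let-7g and let-7j were not above background in sapje at 5 dpf, so their rise there has only a lower bound. Those not called were let-7b, at 0.69 ± 0.43 with an adjusted p of 0.247, and let-7h, which was not above background at 5 dpf, with an adjusted p of 0.052 in limma. In SLW 7 members were called higher (23.4% of tested probes), with let-7a at 2.44 ± 0.43. Of these, let-7h, let-7i and let-7j were not above background in SLW at 5 dpf, so their rise there has only a lower bound. The SLW members not called were let-7b at 0.91 ± 0.43, let-7d at 1.05 ± 0.44 and let-7g at 0.92 ± 0.41, with adjusted p of 0.105, 0.0685 and 0.0899.

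**Figure D2:**
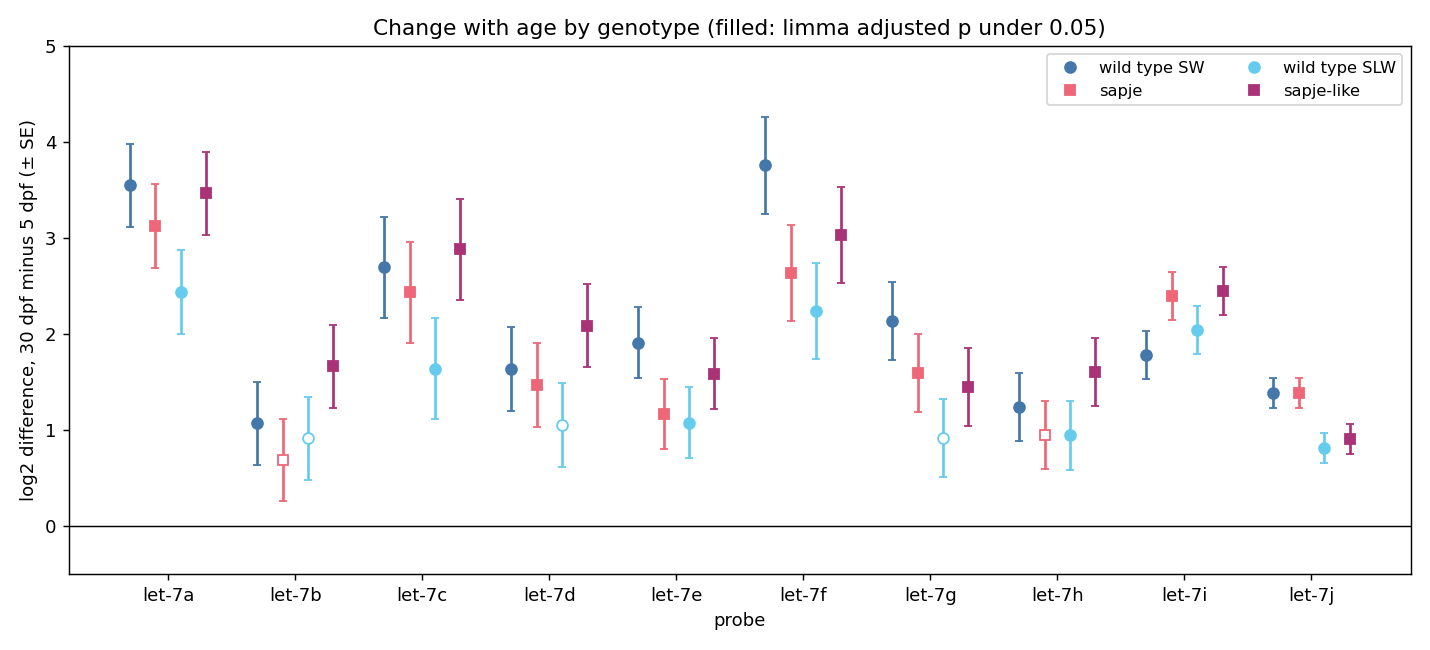
Change with age (log2 difference, 30 dpf minus 5 dpf, with its standard error) of each let-7 probe in the 4 genotypes; filled symbols passed the limma test at an adjusted p of 0.05. Every value lies above 0, with let-7a between 2.44 and 3.55; where a 5 dpf level was not above background, as for let-7f in SW and sapje, the true change has only a lower bound.

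Counts in single genotypes rested on 2 samples against 3. Without SLW replicate 2 at 5 dpf, or without replicate 2 or 5 at 30 dpf, 4 SLW members were called, and in sapje 5 were called without either 5 dpf sample or without replicate 2 at 30 dpf. When SLW was fitted with no other group, 1 member was called, let-7i. The difference between genotypes was also tested directly. No member's change with age was called different between mutants and wild types (0 of 10 in limma and 0 with an unadjusted p under 0.05, against 7.78% of tested probes called). Standard errors of the members reached 0.53, so even differences well above that size could have been missed. The lowest adjusted p was 0.262, for let-7i, whose 5 dpf level in wild types was not above background, so the size of the difference is not given. The change in SLW minus that in SW was not called for any member either (3.59% of tested probes), with a median of -0.71.

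Markers of other tissues moved with age in the same samples. Of 4 tested members of miR-430, the family that clears maternal messages in the early zebrafish embryo, 4 were called lower in wild type at 30 dpf, and of 6 nervous system microRNAs 4 were called lower, where 28.1% of tested probes were called lower. The mean over the miR-430 list ran from 7.57 to 9.03 at 5 dpf and from 6.47 to 6.65 at 30 dpf, and that of the nervous system list from 8.28 to 8.81 and from 7.30 to 7.70, in normalised log2 intensity. The miR-430 means at 30 dpf lay near the floor, so the size of their fall is not read. Such probes may have entered the test through 5 dpf samples only, so the miR-430 count adds no support. Of 6 striated muscle microRNAs 1 was called higher, miR-1, where 29.9% of tested probes were called higher. Of 4 gut and liver microRNAs 1 was called lower, miR-192. The part of these lists in the let-7 result was not tested. In RNA from whole fish, a change in the number of cells that carry let-7 and a change in the amount per cell cannot be told apart.

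At 5 dpf no member passed the test between mutants and wild types. let-7c read 8.04 and 8.25 in SW and 8.39 and 7.86 in SLW, against 7.38 and 7.40 in sapje and 7.16 and 7.51 in sapje-like, so that the 4 mutant samples were all lower. let-7a showed the same separation, with 7.75 to 8.01 in mutants and 8.04 to 9.30 in wild types. These were 2 of the 10 members, and 1.8% of tested probes had all wild-type samples above all mutants. In the fit let-7c differed by -0.77 ± 0.41 with an adjusted p of 0.543, the lowest of the family.

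The count was 0 of 10 in limma in sapje against SW (1.8% of tested probes called), in sapje-like against SLW (0.599%) and over both cohorts (1.2%), where none had an unadjusted p under 0.05. let-7e, let-7f, let-7g, let-7h and let-7j were not above background in any SW or sapje sample at this age, so the sign of their difference there is not read. let-7a differed by -0.35 ± 0.47 in sapje and by -0.69 ± 0.47 in sapje-like, let-7b by -0.61 ± 0.47 and -0.46 ± 0.47. let-7i was above background in all 4 mutant samples and in none of the 4 wild-type samples at this age. Its normalised levels gave no such order, with 6.70 to 6.94 in mutants and 6.67 to 7.32 in wild types. The 7.32 was that of SW replicate 2, a sample with only 105 probes above background.

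At 30 dpf most members read lower in sapje and higher in sapje-like than in their wild types, but no member passed the test in either cohort. The difference between the effects of the cohorts was not called for any member either. In the sapje cohort let-7f read 10.00, 11.06 and 10.40 in SW and 8.94, 10.13 and 8.86 in sapje. The sapje samples were lower apart from replicate 2, which lay between the SW samples. The difference was -1.17 ± 0.46, with a 95% interval from -2.15 to -0.19 and an adjusted p of 0.261 in limma. let-7b read 8.15, 9.39 and 8.25 in SW and 7.51, 7.90 and 7.69 in sapje. Here the groups did not overlap, yet the difference of -0.99 ± 0.39 also had an adjusted p of 0.261.

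Of the 10 members 9 were below 0 in sapje against SW at 30 dpf and none was called (1.2% of tested probes were). Over all tested probes 40.1% were above 0. The members share samples and most moved together, so their signs are not separate results. The median was -0.69, against -0.06 over all tested probes, but it was -0.34 without SW replicate 3 and -0.996 without sapje replicate 2. Of the members, let-7b, let-7e and let-7f had an unadjusted p under 0.05. let-7e differed by -0.83 ± 0.33 and let-7c by -1.02 ± 0.48. let-7a, let-7b, let-7e and let-7h had every SW sample above every sapje sample, as had 16.2% of tested probes. The spots of bright probes deviated together in pairs of samples, 1 in each dye, which were taken to share an array. Within these pairs the 9 members were lower in sapje on 3 of 3 arrays. let-7i was the exception, at 0.38 ± 0.23. The pairs reuse the same samples, and for let-7a, let-7b, let-7e and let-7h the lack of overlap fixed this outcome. The array counts therefore add no support, and the share over all tested probes was not counted.

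In the sapje-like cohort all 10 members were above 0 at 30 dpf and none was called (8.98% of tested probes were). Over all tested probes 46.1% were above 0. Here too the signs of the members are not separate results. let-7h read 7.40, 7.90 and 9.24 in sapje-like and 7.36, 7.51 and 7.51 in SLW, a difference of 0.68 ± 0.32 with an adjusted p of 0.195. Replicate 3 alone carried the high value, and the groups overlapped. The median over members was 0.44, against -0.03 over all tested probes. It was 0.08 without SLW replicate 8, 0.18 without sapje-like replicate 3, 0.64 without sapje-like replicate 1 and 0.18 with median scaling. sapje-like replicate 3 stood apart from the other 30 dpf samples, with 105 probes above background against 139 to 173 and a brightest probe of 44816 scanner units against 14761 to 33452. Between samples taken to share an array, let-7c differed by -0.45, -0.20 and 2.06, and let-7a by -0.66, -0.05 and 1.69. The large positive value was that of sapje-like replicate 3 against SLW replicate 8, and let-7h and let-7i alone were higher in sapje-like on all 3 arrays. For let-7i every sapje-like sample was above every SLW sample, which fixed this outcome, and 1 of the let-7h differences was only 0.05. These array counts reuse the same samples and add no support, and the share over all tested probes was not counted. Without sapje-like replicate 1, let-7h was called higher in sapje-like against SLW, the 1 member that was.

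**Figure D3:**
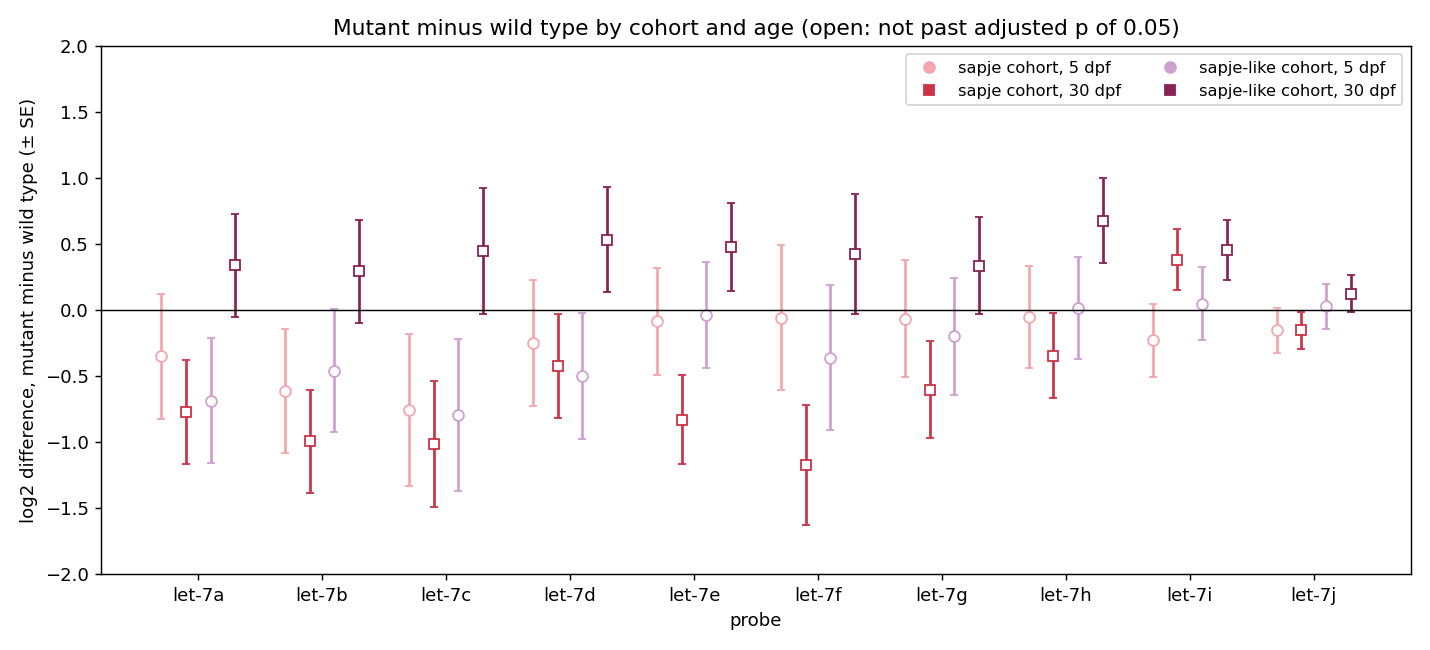
Mutant minus wild type (log2 difference with its standard error) for each let-7 probe, by cohort and age; all symbols are open because none passed an adjusted p of 0.05. At 30 dpf the sapje values lie below 0 for 9 of 10 probes and the sapje-like values above 0 for all 10.

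The difference between these effects was tested in the same fit. For all 10 members the effect at 30 dpf was more positive in sapje-like than in sapje, by a median of 1.07. Over all tested probes 49.1% were above 0. The members share samples and most moved together, so their shared sign is not 10 separate results. The median over members ran from 0.72 to 1.47 with 1 sample left out, and from 0.47 to 1.29 in the 13 other settings. let-7f had the largest value, 1.60 ± 0.63. An unadjusted p under 0.05 in limma was found for 5 members, against 9 of the 167 tested probes, these 5 included. The lowest adjusted p was 0.663 in limma, and no probe of the array was called (0%). By status at 30 dpf, the median over members was -0.65 for SLW minus SW and 0.42 for sapje-like minus sapje. At 5 dpf the difference between the effects had a median of 0.01, and 0 members were called in limma, 0 with an unadjusted p under 0.05 (0.599% of tested probes were called).

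Taking both cohorts together, mutants minus wild types at 30 dpf had a median of -0.15 and no member was called (13.2% of tested probes were). let-7i came nearest. It read 8.59 to 8.94 in the 6 wild-type samples and 8.90 to 9.80 in the 6 mutant samples, with overlap only at the edge. Its difference was 0.42 ± 0.16 with an adjusted p of 0.102. In the sapje-like cohort by itself let-7i was the 1 member with every mutant sample above every wild-type sample (8.90, 9.21 and 9.45 against 8.59, 8.69 and 8.86), as were 5.99% of tested probes.

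Single samples set much of the spread at 30 dpf. The mean over the 10 probes was 9.05, 9.75 and 9.20 in SW, 8.62, 9.07 and 8.60 in sapje, 8.92, 8.85 and 8.16 in SLW, and 8.58, 9.04 and 9.59 in sapje-like. By group mean the order was SW (9.33 ± 0.37), sapje-like (9.07 ± 0.51), sapje (8.76 ± 0.27) and SLW (8.64 ± 0.42; SD, n = 3 each), and the sample ranges of neighbours in this order overlapped. At 5 dpf the group means lay between 6.95 and 7.24.

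SLW replicate 8 was the lowest and SW replicate 3 the highest. SLW replicate 8 also stood apart in its gut and liver microRNAs, whose list mean was 11.85 against 7.17 and 7.26 in the other SLW samples, and in striated muscle microRNAs, at 10.96 against 12.63 and 12.42. Over all 30 dpf samples the gut and liver list ran from 7.17 to 11.85 in wild types and from 9.16 to 12.16 in mutants. Of its 4 probes 3 were called higher in mutants, against 9 of the 167 tested probes. sapje-like replicate 3 had a gut and liver mean of 11.59 and a let-7 mean of 9.59. The part of tissue makeup in the mutant comparisons was not tested. SLW replicate 8 and SW replicate 3 were then both left out, a choice made after seeing the data. The median over members at 30 dpf was then -0.33 in sapje against SW and 0.11 in sapje-like against SLW. In the full fit these medians were -0.69 and 0.44. As in the full fit, no member was called in any mutant comparison.

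**Figure D4:**
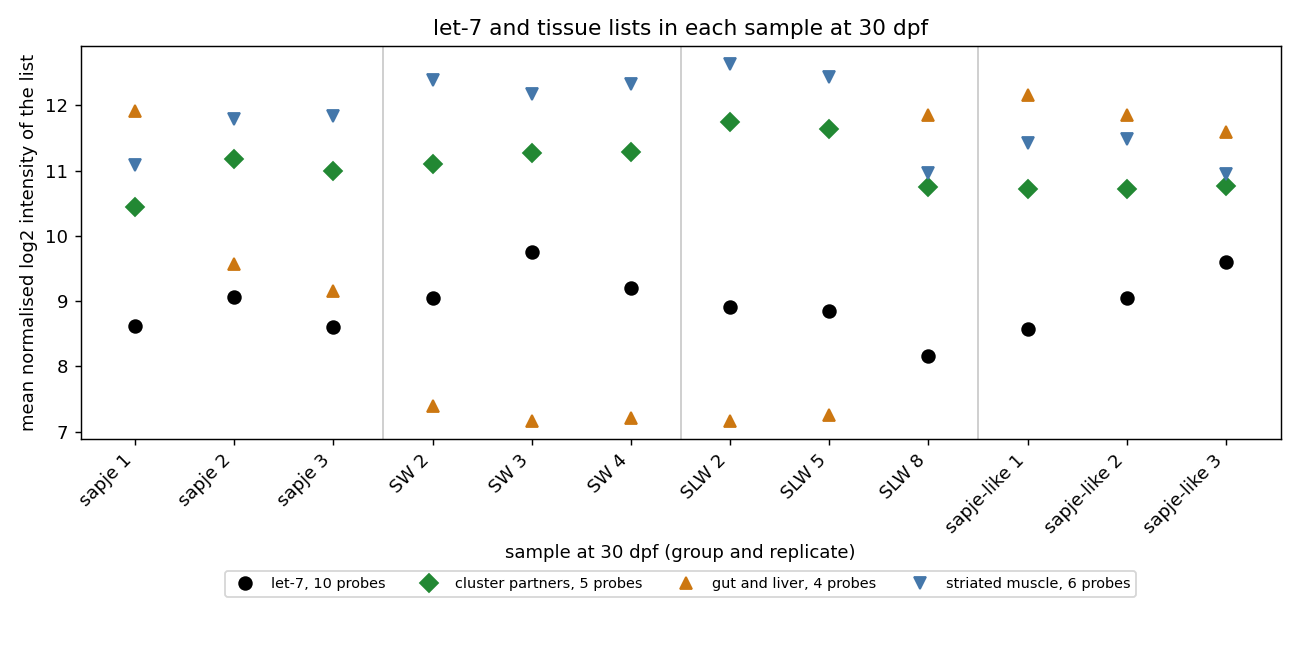
Mean normalised log2 intensity (vertical axis) of the 10 let-7 probes, 5 cluster partners, 4 gut and liver probes and 6 striated muscle probes in each of the 12 samples at 30 dpf. The let-7 mean lies between 8.16 and 9.75, while the gut and liver mean spans 7.17 to 12.16 and is at least 9.16 in all mutants and in SLW replicate 8, and at most 7.39 in the other wild types.

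Most members moved together from sample to sample. Over the 12 samples at 30 dpf, each taken as its deviation from its group mean, the median correlation of a member with the other 9 was 0.85 for let-7f, 0.81 for let-7a and let-7g, 0.79 for let-7b and 0.78 for let-7c. It was 0.45 for let-7h, 0.30 for let-7j and -0.08 for let-7i. Pairs that differ by 1 base had correlations of 0.71 to 0.91 (median 0.82, 7 pairs). Pairs at 2 or 3 bases ran from -0.31 to 0.95 (median 0.67, 23 pairs). Those at 4 or more bases ran from -0.38 to 0.84 (median 0.30, 15 pairs), and many of them include let-7i or let-7j. The highest value, 0.95, was that of let-7c and let-7f, which differ by 2 bases. These are descriptions: the points share their libraries and normalisation, and near-identical sequences can share signal on the array.

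let-7j separated the cohorts. It read 8.06, 8.12 and 8.09 in SW and 7.78, 8.09 and 7.90 in sapje at 30 dpf, against 7.44, 7.32 and 7.27 in SLW and 7.29, 7.72 and 7.36 in sapje-like. All 6 samples of the sapje cohort were above all 6 of the sapje-like cohort. This held for no other let-7 member or tested probe, so that let-7j is itself the 0.599% of tested probes. Its value in sapje-like replicate 3 (7.36) was not above background. Between the wild types, SLW minus SW was -0.75 ± 0.14 with an adjusted p of 0.0193 in limma. let-7j was the 1 member called, and the 1 probe of 167 (0.599%). Within dyes the difference was -0.80 in Cy3 and -0.72 in Cy5.

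The let-7j call rested on few samples. Leaving out any 1 of the 6 wild-type samples at 30 dpf ended it, with adjusted p from 0.0524 to 0.184. It was also lost with median scaling (0.305), in the authors' deposited values (0.371) and when only the wild types at 30 dpf were fitted (0.265), while the sign did not change. Between the mutants, sapje-like minus sapje was -0.47 ± 0.14 with an adjusted p of 0.165 (0.599% of tested probes called). The other members were below 0 as well in SLW against SW at 30 dpf, with let-7f at -1.16 ± 0.45, let-7c at -1.07 ± 0.47 and let-7g at -0.98 ± 0.36, each with an adjusted p of 0.539. let-7e, let-7f, let-7g, let-7h and let-7j had every SW sample above every SLW sample, as had 6.59% of tested probes. At 5 dpf no member was called between the wild types (1.8% of tested probes). let-7h, let-7i and let-7j were not above background in any wild-type sample at this age, so signs are not counted over the members.

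The cluster partners were read in the same fit. miR-99, miR-100 and the miR-125 members lie beside let-7a, let-7c and let-7d loci and in other animals come from shared primary transcripts with let-7. In wild type of both cohorts 4 of the 5 were called higher at 30 dpf, where 29.9% of tested probes were. These were miR-99 (0.93 ± 0.35), miR-125b (0.84 ± 0.26), miR-100 (0.67 ± 0.20) and miR-125c (0.57 ± 0.23), with adjusted p from 0.0114 to 0.0496 in limma. miR-125a, the neighbour of both let-7d loci, gave -0.10 ± 0.29. These calls depended on the processing: over 14 settings the 4 kept their sign, but miR-100 and miR-125b passed in 10, miR-99 in 8 and miR-125c in 6. In single genotypes at most 1 of the 5 was called, where 15% to 26.3% of tested probes were called higher.

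Over both cohorts, 2 of the 5 partners were called in mutants at 30 dpf, where 13.2% of tested probes were called. Averaged over both cohorts, mutants minus wild types was -1.12 ± 0.32 for miR-99 (adjusted p 0.0344 in limma) and -0.68 ± 0.19 for miR-100 (adjusted p 0.0287). Each was called in 10 of 14 settings, and miR-125a, miR-125b and miR-125c in 0 of 14. let-7a, with only some of its 6 loci beside miR-100, gave -0.22 ± 0.28 and was not called. The let-7a probe reads all 6 loci together. let-7c, with both loci beside miR-99, gave -0.28 ± 0.34 and was not called. In single cohorts at 30 dpf, 0 of the 5 partners were called in sapje against SW (1.2% of tested probes) and 1 in sapje-like against SLW (8.98%). Whether the partners and let-7 differ from each other was not tested.

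By the root mean square distance between centred group means over the 8 groups, the let-7 mean was compared with the 142 other tested probes that are not star strands. The 5 nearest were miR-731 (0.30), miR-15a (0.30), miR-23a (0.42), miR-375 (0.44) and miR-451 (0.45 log2 units). By the same measure the members themselves lay between 0.17 (let-7d) and 0.67 (let-7a) from their mean. These 5 were all called higher at 30 dpf in wild type in each of 14 settings. They were picked because their group means follow the let-7 mean, which rises with age, so these calls add no support.

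**Figure D5:**
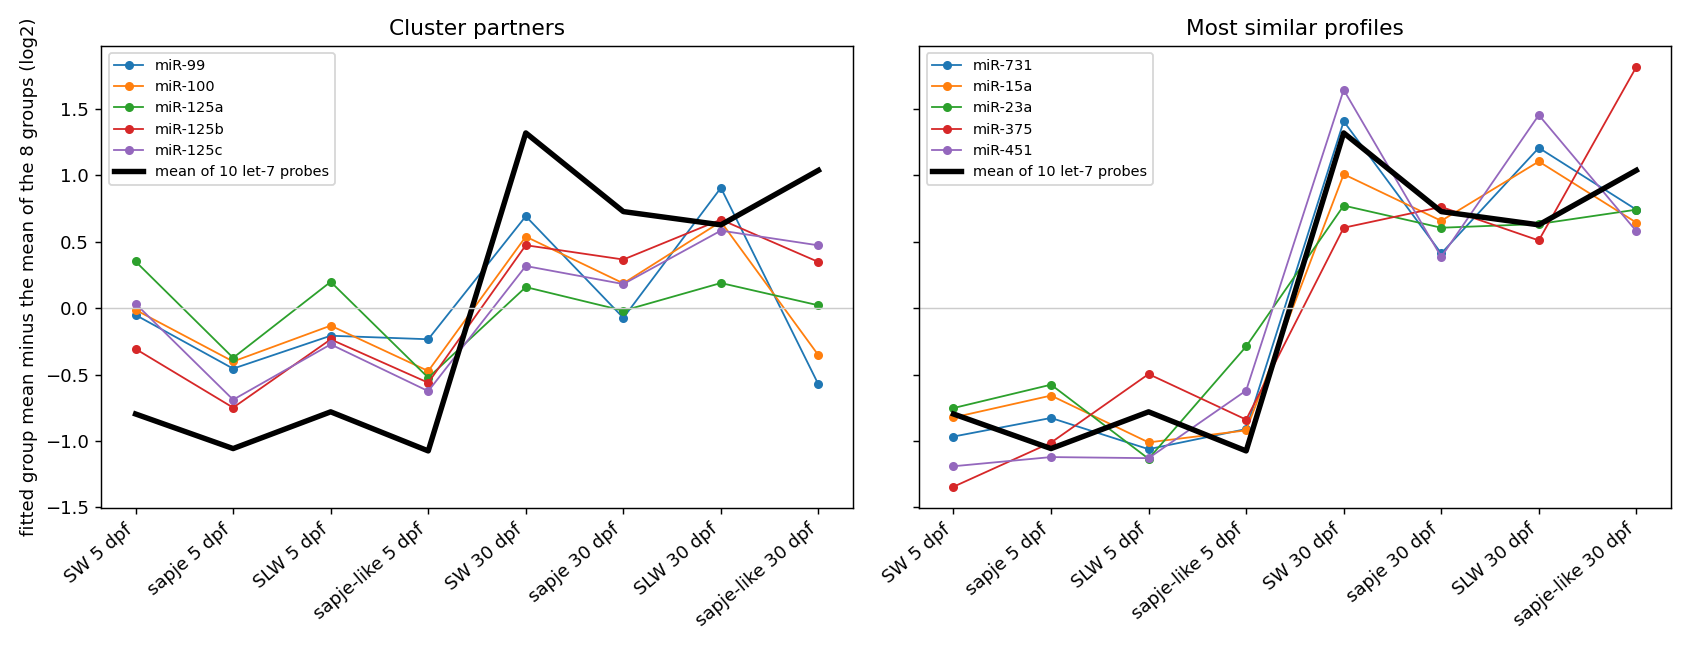
Fitted group means minus the mean of the 8 groups (log2) for the mean of the 10 let-7 probes (black) and, left, its 5 cluster partners and, right, the 5 probes with the most similar profile. The let-7 mean rises between the ages in all genotypes, whereas miR-99 in sapje-like and miR-125a in SW and SLW do not.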

How the data were processed

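The deposited scanner files give, per the file headers, the intensity of each of 3968 spots for 1 dye channel of a sample; no normalisation is recorded in them. The authors also deposited a table of processed intensity values per probe. Its direction was settled by its correlation with the values computed here (r 0.981 to 0.990 per sample); its scale and centring are not stated in the sources used here, and its column medians run from 95.3 to 144. From the deposited intensity, log2 values were computed with normexp background correction (offset 50) on all spots, averaged over 12 spots per probe and quantile normalised over 219 mature probes in limma 3.58.1 (R 4.3.3). A probe was above background when its mean exceeded the median of 1048 empty spots by 3 robust SDs. Empty-spot medians were 282 to 572 in Cy3 and 32.3 to 47.2 in Cy5, and a sample had 105 to 173 probes above it. Precision is limited by how many arrays there are. Probes above background in fewer than 2 samples of every group (52) were left out.

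Of the samples, all 20 entered 1 limma fit of 8 groups with a dye term (11 residual and 2.48 prior degrees of freedom), with Benjamini-Hochberg adjustment over 167 probes in each of 19 comparisons and a threshold of 0.05. Of these comparisons, 3 were added after seeing the data. Files carry no array identifier: array pairs were inferred from spot deviations of 43 bright probes, at least 2 times the empty-spot background in every sample, and all 20 samples had a mutual partner; with the bar at 2.5 or 3 times, 18 did. Replicate numbers were not taken as pairing samples: the deviations of same-numbered samples correlated at 0.209 and 0.115 at 5 dpf and at -0.440 to -0.0458 at 30 dpf. At 5 dpf the same-numbered samples were also the inferred array pairs. At 30 dpf the inferred pairs correlated at 0.148, 0.341 and -0.231 in the sapje cohort and at 0.050, -0.025 and -0.023 in the sapje-like cohort. Named probes were the 10 members, their cluster partners, the 5 most similar profiles and tissue lists. Members and lists were chosen with earlier results of these data known. The fit was tested on simulated data. Sequences come from the scanner files; locus names and neighbours come from RefSeq. Figures used Python 3.11.15 and matplotlib 3.10.9.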

Additional observations from a re-analysis of the deposited data

How the results depend on the processing

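The wild-type rise with age was called for 10 members in all 13 other settings (other scalings, offset, filters, dye and block choices, the authors' values, fewer groups), and for 9 to 10 with 1 sample left out. Where dim probes were filtered, let-7e, let-7h and let-7j entered through their 30 dpf samples and add no support to counts of the rise. Median scaling shifted the centre of all probes by -0.27 in that comparison. The SLW rise gave 3 members with loess within inferred arrays, 1 with only the groups compared, and 4 to 9 with 1 sample left out; the sapje rise gave 5 to 9. SLW minus SW at 30 dpf gave 0 members with median scaling, the authors' values, only the groups compared, or both samples left out, 0 to 1 with 1 sample left out, and 6, all lower (let-7e to let-7j), with loess within inferred arrays, where the median of all probes was -0.52. That loess also gave let-7i and let-7j, 2 members, for sapje-like minus sapje at 30 dpf and 1, let-7a, for the difference in age change between the wild types. sapje-like minus SLW at 30 dpf gave 0 to 1 members with 1 sample left out. Apart from the fits on fewer groups or samples, the cause was not tested. No member's call turned its direction.

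With the replicate number as a replicate block (consensus correlation 0.319), the wild-type rise gave 10 members, SW gave 9 and the mutant comparison at 30 dpf 0; the block ended the let-7b call in SW and moved no count by more than 1.5 times. The dim probes at 5 dpf limit what can be said there: values near the floor understate change.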
